A study of Rattus norvegicus with 48 samples.

Results

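The antioxidant and glutathione system of rat liver was followed here as 36 genes: 10 peroxidases, 3 superoxide dismutases, 10 genes of the thioredoxin, glutaredoxin and methionine sulfoxide repair systems, 5 genes of glutathione synthesis and recycling, and 8 genes around the transcription factor NRF2. They were chosen by name, and all 36 were found among the 14506 genes measured, on 38 of 29215 probe sets. Where a gene had several probe sets, the one with the highest mean over the arrays was used. Expression was measured in right-lobe biopsies of 48 male Wistar rats, 1 Affymetrix array per animal. The IPC+IPO group (n = 10) had both interventions described next, before and after the main ischemia. In the IPO group (n = 10, ischemic postconditioning), flow was first let in for 30 sec and stopped for 30 sec, 3 times over, as reperfusion began. In the IPC group (n = 10, ischemic preconditioning), 10 min of ischemia and 10 min of reperfusion came before the main insult. The IRI group (n = 10) had the insult alone, which all 4 of these groups shared: 30 min of ischemia of the whole liver and 30 min of reperfusion. The Sham group (n = 8) had a laparotomy without ischemia. All animals weighed 300 to 350 g and had the same anaesthesia.

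Reperfusion of a blood-starved liver brings oxygen back to mitochondria and to oxidases that then form superoxide. Superoxide dismutases turn it into hydrogen peroxide, which catalase, glutathione peroxidases and peroxiredoxins remove. Glutathione peroxidases draw on reduced glutathione, peroxiredoxins mostly on thioredoxin, and glutathione reductase and thioredoxin reductases restore these with NADPH. NRF2, encoded by Nfe2l2, is held down by KEAP1 until oxidants or electrophiles modify KEAP1. It then binds antioxidant response elements and raises many genes of glutathione synthesis, quinone reduction and thioredoxin reduction.

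The antioxidant response element core, TGACNNNGC, was searched on both strands in windows of the 250 bases before the transcript starts listed for each gene (RefSeq, GRCr8), since NRF2 acts through it. Of the 36 genes, 31 had a window, and 3 of these had several (Glrx2, Gpx4 and Txnrd1). Of the 37 windows, 5 (13.5%) held a match, each in a different gene, against 10.1% of 33469 windows of the same length over all genes. The 5 matches are shown on the strand of the match with 10 flanking bases and the motif in capitals. They lie at chr3:134802755-134802783 (minus strand, Blvra), chr2:213031953-213031981 (minus, Gclm), chr5:135383761-135383789 (minus, Prdx1), chr1:50050185-50050213 (plus, Sod2) and chr7:22755964-22755992 (plus, Txnrd1).
Blvra: tccacttcggTGACCCAGCaaatatttaa
Gclm: tggaagacaaTGACTAAGCagaaaccgca
Prdx1: cggcggggtaTGACTCAGCgctttccctg
Sod2: agctaggcgcTGACCCTGCcggcagcgcc
Txnrd1: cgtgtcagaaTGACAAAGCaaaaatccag
The site starts 135 bases before the transcript start of its window in Prdx1, 172 in Gclm, 145 in Blvra, 78 in Txnrd1 and 35 in Sod2. The windows of Blvra and Txnrd1 lie inside the annotated span of the gene. The window before Gpx1, the gene called in most comparisons with sham below, holds no match and is shown for contrast (chr8:117905212-117905461, plus strand).
Gpx1: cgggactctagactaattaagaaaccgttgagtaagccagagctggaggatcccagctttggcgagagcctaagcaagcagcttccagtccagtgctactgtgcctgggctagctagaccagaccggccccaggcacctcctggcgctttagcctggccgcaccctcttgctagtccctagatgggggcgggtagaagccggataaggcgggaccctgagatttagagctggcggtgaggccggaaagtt
A match is a string of letters in a window, and its absence says nothing of elements elsewhere.

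The values are log2 expression values, normalized by the authors with RMA. The arrays differed in spread, the standard deviation of an array's log2 values over its 14506 genes, which ran between 1.498 and 1.965. Mean spread was 1.857 ± 0.153 in IPC+IPO, 1.908 ± 0.065 in IPO, 1.850 ± 0.083 in IPC, 1.768 ± 0.111 in IRI and 1.723 ± 0.134 in Sham (SD). It moved with the groups, so most called differences are also given with spread as a covariate and, for some, without the 12 arrays of lowest spread, 6 of which were sham. Hepatocyte markers were abundant in every group, with summed linear levels of 10 genes between 38800 and 60600 over all animals. Precision is limited by the number of arrays.

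Against sham, 18 of the 36 genes rose in at least 1 of the 4 ischemic groups and none fell in the values as deposited. A gene was called at an adjusted p under 0.05, with limma over all genes and Benjamini-Hochberg adjustment. In IPO, 18 members rose (50%), where 23.2% of all genes were called, 15.4% higher and 7.76% lower. In IPC, 8 members rose (22.2%), where 6.58% of all genes were called, 5.6% higher and 0.986% lower. IPC+IPO had 5 members that rose (13.9%), where 3.62% of all genes were called, 3.05% higher and 0.565% lower. IRI had 1, Gpx1 (2.78%), where 0.241% of all genes were called, 0.172% higher and 0.0689% lower. An unadjusted p under 0.05 in limma was reached by 44.4% of members in IPC+IPO, 58.3% in IPO, 52.8% in IPC and 36.1% in IRI. Of all genes, 23.6%, 40.7%, 23.9% and 11.5% reached it in the same order. The median difference of the 36 genes from sham was 0.36 in IPC+IPO, 0.43 in IPO, 0.31 in IPC and 0.29 in IRI on the log2 scale. The median of all genes was 0.01 in IPC+IPO, 0.00 in IPO, 0.01 in IPC and 0.03 in IRI. Most members were bright: all but Gpx3 (48.1) and Srxn1 (43.2) had a mean level at the 68.1 percentile of all genes (Blvra) or above. The background of all genes was not matched for level, and the part of level in the members' excess was not tested. With array spread as a covariate the members' median was 0.07 in IPC+IPO, 0.05 in IPO, 0.10 in IPC and 0.22 in IRI, and after renewed quantile normalization 0.07, 0.11, 0.09 and 0.12 in the same order. Counts changed as well. With the covariate 0 members were called in IPC+IPO, 0 in IPO, 2 in IPC and 6 in IRI (4 higher, 2 lower), where 34, 0, 275 and 854 of all genes were. After quantile normalization 2 were called in IPC+IPO, 8 in IPO (3 of them lower: Gpx4, Glrx2 and Prdx4), 6 in IPC (2 of them lower: Blvra and Prdx4) and 2 in IRI. That normalization called 325 of all genes in IPC+IPO, 1316 in IPO, 670 in IPC and 382 in IRI. These 4 comparisons share the 8 sham animals. In a bulk biopsy, fewer cells of a type and less RNA per cell cannot be told apart.

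Against IRI, 9 members were called in IPO (25%), 8 higher and 1 lower, where 22.8% of all genes were called, 12.4% higher and 10.4% lower. That share is close to the background. No member was called by limma in IPC+IPO against IRI, where 0% of all genes were called. There 7 members (19.4%) had an unadjusted p under 0.05, against 21.5% of all genes. None was called in IPC against IRI either, where 0.0276% of all genes were called, 0.0138% higher and 0.0138% lower. In that comparison 10 members (27.8%) had an unadjusted p under 0.05 in limma, against 19.3% of all genes. The median difference of the members from IRI was 0.06 in IPC+IPO, 0.11 in IPO and 0.08 in IPC as deposited, and turned below 0 in each after renewed quantile normalization (-0.08, -0.03 and -0.03) and with the spread covariate (-0.13, -0.09 and -0.05). These 3 comparisons share the 10 IRI animals. No member was called for the interaction of the interventions, nor was any gene (0%). At an unadjusted p under 0.05 in limma were 9 members (25%), against 20.3% of all genes.

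**Figure D1:**
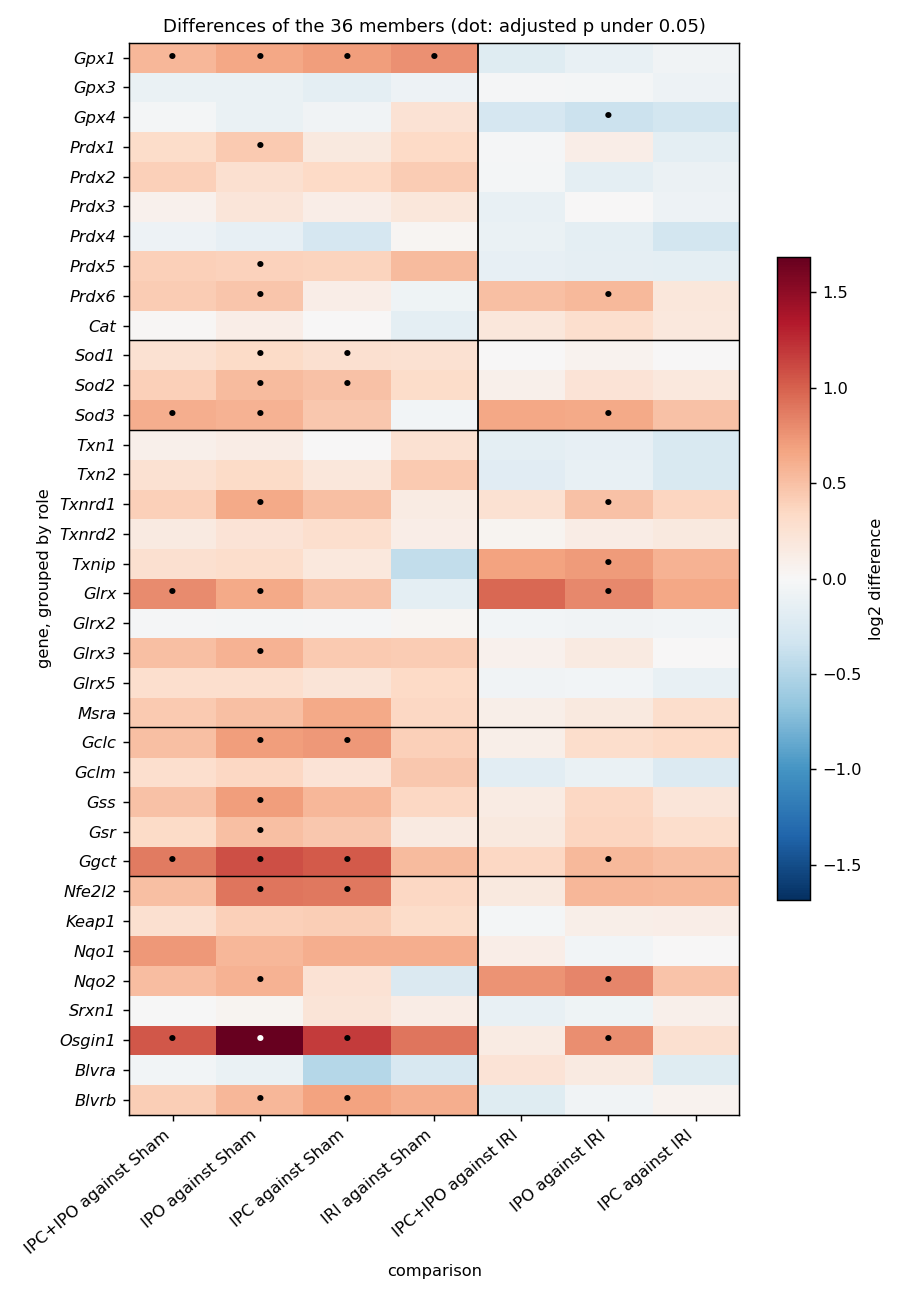
Heat map of log2 differences (colour) of the 36 genes (vertical axis, grouped by role) in 7 comparisons (horizontal axis), dots marking an adjusted p under 0.05. The 32 dots left of the line are all positive, and 18 of them are in IPO against Sham.

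The peroxidases were led by Gpx1, the cytosolic glutathione peroxidase that reduces hydrogen peroxide, which rose against sham in all 4 ischemic groups. Its lowest, median and highest log2 values were 11.16, 11.86 and 12.20 in IPC+IPO, 10.86, 11.99 and 12.17 in IPO, and 11.74, 11.94 and 12.33 in IPC. They were 11.54, 12.08 and 12.24 in IRI and 10.41, 11.34 and 12.04 in Sham. The groups overlapped, but all 10 IPC and all 10 IRI animals lay above the sham median, and 6 IRI animals lay above every sham animal. The difference from sham was 0.56 ± 0.16 in IPC+IPO (adjusted p = 0.0397 in limma), 0.65 ± 0.16 in IPO (0.00687), 0.71 ± 0.16 in IPC (0.00695) and 0.77 ± 0.16 in IRI (0.0266; SE), or 1.47-, 1.57-, 1.64- and 1.70-fold. With spread as a covariate the rise was 0.71 in IRI (adjusted p = 0.00337) and 0.53 in IPC (0.0498), and in IPO (0.39) and IPC+IPO (0.38) it was no longer called. Without the 12 arrays of lowest spread, which leaves 2 sham animals, it was 0.12 in IRI and not called. Its call in IRI was also lost without any 1 of IRI animals 6 or 9 or sham animals 44, 45, 46 or 47, with differences between 0.65 and 0.88 over all arrays left out in turn. Gpx1 did not separate the conditioned groups from IRI, with differences from IRI of -0.21 in IPC+IPO, -0.12 in IPO and -0.06 in IPC that were not called.

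Gpx4, which reduces lipid hydroperoxides within membranes, was the only member called lower in IPO against IRI. Its lowest, median and highest values were 10.12, 10.14 and 10.65 in IPO, against 9.98, 10.61 and 11.18 in IRI. IPC+IPO had 10.02, 10.30 and 10.62, IPC 9.80, 10.32 and 10.74, and Sham 10.21, 10.32 and 10.53. In 9 of 10 IPO animals Gpx4 lay below the IRI median. The difference was -0.36 ± 0.10 (SE, adjusted p = 0.0181 in limma), and it kept its call without each array in turn. It was -0.32 with the spread covariate (adjusted p = 0.28).

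Among the peroxiredoxins, Prdx6, which reduces phospholipid hydroperoxides, rose in IPO against IRI by 0.55 ± 0.16 (adjusted p = 0.0219 in limma) and against sham by 0.47 ± 0.17 (0.0435; SE). Its values ran between 8.90 and 9.48 with a median of 9.27 in IPO. Lowest, median and highest values elsewhere were 8.50, 9.19 and 9.57 in IPC+IPO, 8.10, 8.99 and 9.26 in IPC, 7.74, 8.74 and 9.38 in IRI, and 8.15, 8.78 and 9.30 in Sham. All 10 IPO animals lay above the IRI median, and 1 lay above every IRI animal. With the spread covariate the difference was 0.19 against IRI and -0.01 against sham, neither called. The cytosolic Prdx1 and the mitochondrial and peroxisomal Prdx5 rose in IPO against sham only slightly past the threshold, by 0.44 ± 0.16 (adjusted p = 0.039) and 0.39 ± 0.14 (0.0359). Means of Prdx1 were 11.59 ± 0.26 in IPC+IPO, 11.72 ± 0.21 in IPO, 11.44 ± 0.53 in IPC, 11.61 ± 0.34 in IRI and 11.27 ± 0.28 in Sham (SD). With the covariate the differences were 0.13 for Prdx1 and 0.18 for Prdx5, neither called. For Prdx5 the means were 10.49 ± 0.27, 10.48 ± 0.22, 10.46 ± 0.22, 10.63 ± 0.31 and 10.09 ± 0.43 in the same order of groups. Of the rest of the peroxidases, Gpx3, Prdx2, Prdx3, Prdx4 and the peroxisomal catalase Cat were called in no comparison as deposited. Gpx3, the secreted plasma form, was below sham in all 4 ischemic groups, by 0.09 to 0.17, and catalase differed from sham by -0.17 to 0.11, none called. Gpx3 was dim, with a mean level of 5.79 at the 48.1 percentile of all genes.

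**Figure D2:**
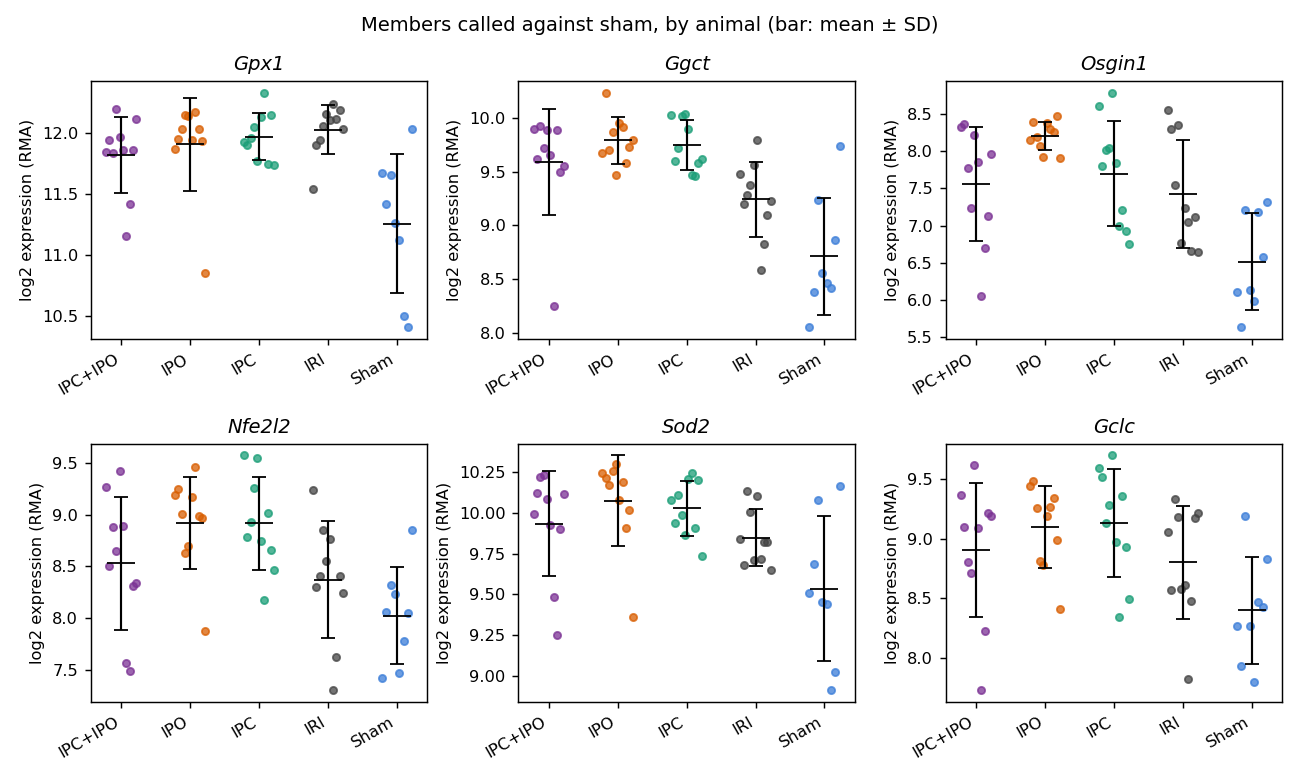
Log2 expression (vertical axis) of 6 genes called against sham in at least 1 group, by animal, in the 5 groups (horizontal axis), with the mean and SD as bars. Osgin1 in IPO is the panel where all 10 animals lie above every sham animal, and the other panels overlap.

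The superoxide dismutases rose together in IPO against sham, all 3 of 3: the cytosolic Sod1 by 0.32 ± 0.08, the mitochondrial Sod2 by 0.54 ± 0.13 and the extracellular Sod3 by 0.59 ± 0.17 (SE, adjusted p 0.00803, 0.00726 and 0.0145 in limma), each kept without any 1 array. Sod1 and Sod2 also rose in IPC against sham, by 0.27 ± 0.08 and 0.49 ± 0.13, and Sod3 in IPC+IPO, by 0.61 ± 0.17. With spread as a covariate none of these kept its call, and without the 12 arrays of lowest spread Sod2 was -0.05 in IPO and -0.08 in IPC. Sod1 means were 11.70 ± 0.14 in IPC+IPO, 11.75 ± 0.11 in IPO, 11.70 ± 0.15 in IPC, 11.69 ± 0.16 in IRI and 11.43 ± 0.22 in Sham (SD). Lowest, median and highest Sod2 values were 9.25, 10.04 and 10.23 in IPC+IPO, 9.36, 10.18 and 10.30 in IPO, and 9.73, 10.03 and 10.24 in IPC. In IRI they were 9.65, 9.82 and 10.13, and in Sham 8.92, 9.48 and 10.16. Sham animals 43 and 48 stood above the rest of sham in Sod2 and lay within the range of the conditioned animals.

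Sod3 was the dismutase that separated IPO from IRI. It ran through 6.67, 7.27 and 7.59 (lowest, median and highest) in IPO and 6.61, 7.33 and 7.58 in IPC+IPO, against 6.14, 6.51 and 7.14 in IRI. IPC had 6.18, 7.10 and 7.58, and Sham 5.88, 6.65 and 7.28. All 10 IPO and all 10 IPC+IPO animals lay above the IRI median, and 7 of each lay above every IRI animal. The difference from IRI was 0.64 ± 0.16 in IPO (adjusted p = 0.0139 in limma) and 0.66 ± 0.16 in IPC+IPO (0.0942, not called; SE). It was 0.31 in IPO with the spread covariate and not called, and 0.54 without the 12 arrays of lowest spread (adjusted p = 0.0462), where IPC+IPO, at 0.68, was called as well (0.036).

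In the thioredoxin and glutaredoxin systems, Glrx, the cytosolic glutaredoxin that removes glutathione from protein thiols, had the largest difference from IRI of all members in IPC+IPO and in IPC. Lowest, median and highest values were 8.12, 8.69 and 9.11 in IPC+IPO, 7.49, 8.53 and 8.92 in IPO, 7.74, 8.36 and 8.90 in IPC and 6.20, 7.72 and 8.38 in IRI. Sham had 6.88, 7.81 and 9.14, a range that held every value of the other groups but that of IRI animal 7 (6.20). In IPC+IPO 7 of 10 animals lay above every IRI animal, in IPO 6 of 10. Against IRI the difference was 0.97 ± 0.22 in IPC+IPO (adjusted p = 0.0942 in limma, not called), 0.81 ± 0.22 in IPO (0.0167) and 0.66 ± 0.22 in IPC (0.164, not called; SE). In IPC+IPO it was called with the spread covariate (0.66, adjusted p = 0.0495), after renewed quantile normalization (0.84, 0.0317) and without the 12 arrays (0.89, 0.0356). Against sham Glrx rose by 0.80 in IPC+IPO and 0.64 in IPO, but was -0.04 in IPC+IPO and -0.31 in IPO without the 12 arrays, and -0.02 in IPO with the covariate.

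Txnip, the thioredoxin-binding protein that inhibits thioredoxin and whose expression rises with glucose, was called in 1 comparison as deposited, IPO against IRI. In IPC+IPO its lowest, median and highest values were 6.32, 8.55 and 8.90, in IPO 7.43, 8.40 and 8.91, and in IPC 7.37, 8.23 and 8.71. In IRI they were 6.93, 7.62 and 8.11, and in Sham 7.47, 7.90 and 8.45. The lowest value of all 48 was that of IPC+IPO animal 38, and the groups overlapped. It rose in IPO against IRI by 0.71 ± 0.22 (SE, adjusted p = 0.0244 in limma), with 7 of 10 IPO animals above every IRI animal. Not called were the differences of 0.68 in IPC+IPO against IRI (0.107), 0.59 in IPC against IRI (0.18) and -0.41 in IRI against sham (0.502). With the spread covariate Txnip was 0.28 in IPO against IRI and not called, and IRI against sham was called lower, at -0.55 (0.0468). Txnrd1, the cytosolic thioredoxin reductase, rose in IPO against IRI by 0.49 ± 0.16 (adjusted p = 0.0307) and against sham by 0.63 ± 0.17 (0.011; SE). Across groups its lowest, median and highest values were 6.13, 7.10 and 7.32 in IPC+IPO, 6.77, 7.27 and 7.46 in IPO, 6.52, 7.20 and 7.55 in IPC, 5.89, 6.76 and 7.26 in IRI and 6.08, 6.42 and 7.15 in Sham. All 10 IPO animals lay above the medians of both IRI and Sham. With the covariate Txnrd1 was 0.15 against IRI and 0.18 against sham in IPO, neither called. Glrx3, an iron-sulfur carrier, rose in IPO against sham by 0.58 ± 0.21 (0.0402) and was 0.03 with the covariate, not called. It averaged 8.18 ± 0.39 in IPC+IPO, 8.26 ± 0.42 in IPO, 8.12 ± 0.45 in IPC, 8.11 ± 0.34 in IRI and 7.68 ± 0.69 in Sham (SD). Thioredoxins Txn1 and Txn2, Txnrd2, Glrx2, Glrx5 and the methionine sulfoxide reductase Msra were called nowhere as deposited, and with the spread covariate Txn2 was called higher in IRI against sham (0.38, 0.0386).

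**Figure D3:**
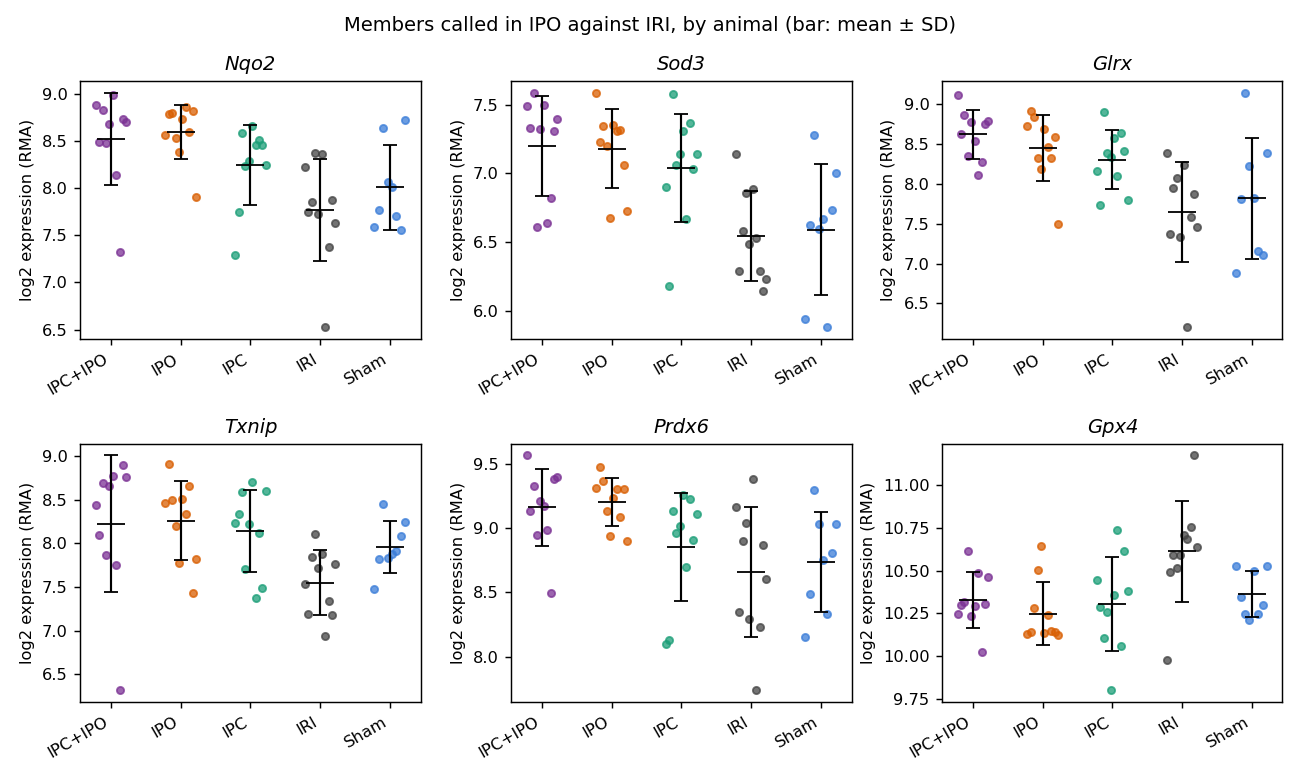
Log2 expression (vertical axis) of 6 of the 9 genes called in IPO against IRI, by animal, in the 5 groups (horizontal axis), with the mean and SD as bars. In Nqo2, 9 of 10 IPO animals lie above every IRI animal, and in Gpx4 the IPO animals lie low.

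Glutathione synthesis and recycling held 4 of 5 members that rose in IPO against sham. Ggct, gamma-glutamylcyclotransferase, which breaks down gamma-glutamyl peptides in the glutathione cycle, had the smallest p among the members in each of the 3 conditioned groups against sham. Lowest, median and highest values of Ggct were 8.25, 9.69 and 9.92 in IPC+IPO, 9.47, 9.77 and 10.24 in IPO, and 9.46, 9.67 and 10.04 in IPC. In IRI they were 8.58, 9.26 and 9.79, and in Sham 8.05, 8.51 and 9.74. All IPC and IPO animals lay above the IRI and sham medians, and the lowest IPC+IPO value, of animal 37, stood far below the other 9. Ggct rose against sham by 0.88 ± 0.18 in IPC+IPO (adjusted p = 0.00655 in limma), 1.08 ± 0.18 in IPO (0.00102) and 1.03 ± 0.18 in IPC (0.000671; SE), or 1.84-, 2.12- and 2.05-fold. Each of these calls held without any 1 array. With the spread covariate Ggct was 0.64 in IPC+IPO (0.0575), 0.75 in IPO (0.0755) and 0.81 in IPC (0.00416), and only the last was called. Without the 12 arrays of lowest spread it was 0.23 in IPC+IPO, 0.31 in IPO and 0.27 in IPC, and not called. It rose in IPO against IRI by 0.55 ± 0.17 (0.0227), but not without IRI animal 7, where it was 0.48 and not called.

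Gclc, the catalytic subunit of the rate-limiting ligase of glutathione synthesis, rose in IPO by 0.70 ± 0.21 (adjusted p = 0.0179 in limma) and in IPC by 0.74 ± 0.21 (0.0305; SE) against sham. Its regulatory partner Gclm was called in no comparison, with differences from sham between 0.23 and 0.46. Gss, the synthetase of the second step, and Gsr, the reductase that restores glutathione, rose in IPO against sham by 0.71 ± 0.20 (0.013) and 0.51 ± 0.17 (0.0249). Means of Gclc were 8.91 ± 0.56 in IPC+IPO, 9.10 ± 0.34 in IPO, 9.13 ± 0.45 in IPC, 8.80 ± 0.47 in IRI and 8.40 ± 0.45 in Sham (SD). Those of Gss were 7.51 ± 0.52, 7.72 ± 0.24, 7.58 ± 0.35, 7.37 ± 0.48 and 7.02 ± 0.53 in the same order, and of Gsr 8.19 ± 0.39, 8.39 ± 0.24, 8.33 ± 0.23, 8.03 ± 0.50 and 7.88 ± 0.35. In IPO against sham, none of Gclc, Gss and Gsr kept its call with spread as a covariate, at 0.21, 0.11 and 0.08, nor did Gclc in IPC, at 0.40 (adjusted p = 0.209).

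In the NRF2 branch, Osgin1, an NRF2 target that restrains cell growth, had the largest difference from sham of all 36 genes. Lowest, median and highest Osgin1 values were 6.06, 7.82 and 8.36 in IPC+IPO, 7.90, 8.23 and 8.47 in IPO, and 6.75, 7.82 and 8.78 in IPC. IRI had 6.65, 7.18 and 8.55, and Sham 5.64, 6.36 and 7.32. All 10 IPO animals lay above every sham animal, as did 6 IPC, 6 IPC+IPO and 4 IRI animals. Osgin1 rose against sham by 1.05 ± 0.29 in IPC+IPO (adjusted p = 0.0369 in limma), 1.69 ± 0.29 in IPO (0.00114) and 1.18 ± 0.29 in IPC (0.0135; SE), or 2.06-, 3.21- and 2.26-fold. In IRI the difference of 0.91 ± 0.29 was not called (0.154). With the spread covariate it was 0.63 in IPC+IPO, 1.11 in IPO and 0.78 in IPC, and not called. After renewed quantile normalization Osgin1 was called in all 4 groups in limma. It was then 0.90 in IPC+IPO (adjusted p = 0.0489), 1.47 in IPO (0.00202), 1.07 in IPC (0.0115) and 0.98 in IRI (0.0304). Without the 12 arrays of lowest spread it was 0.60 in IPC+IPO, 0.94 in IPO and 0.42 in IPC, none called. Against IRI it rose in IPO by 0.78 ± 0.27 (0.0378), a call lost without any 1 of 11 animals.

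Nfe2l2 itself rose in IPO by 0.90 ± 0.24 (adjusted p = 0.00919 in limma) and in IPC by 0.89 ± 0.24 (0.0196; SE) against sham, 1.87- and 1.86-fold. Its lowest, median and highest values were 7.49, 8.58 and 9.43 in IPC+IPO, 7.87, 9.0 and 9.46 in IPO, 8.18, 8.86 and 9.58 in IPC, 7.30, 8.41 and 9.24 in IRI and 7.42, 8.06 and 8.86 in Sham. In 7 of 10 IPO and 5 of 10 IPC animals it lay above every sham animal. With spread as a covariate it was 0.28 in IPO and 0.47 in IPC, neither called. Keap1, which holds NRF2 down, was not called in any group, with differences from sham between 0.27 and 0.42. In the interaction of IPC and IPO, which is below 0 where both together gave less than the sum of each, Nfe2l2 stood at -0.94 ± 0.32 and Ggct at -0.71 ± 0.24, both with an adjusted p of 0.205.

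Of the quinone reductases, Nqo2 separated IPO from IRI more completely than the other members did. Its lowest, median and highest values were 7.32, 8.69 and 8.98 in IPC+IPO, 7.91, 8.66 and 8.86 in IPO, and 7.29, 8.37 and 8.66 in IPC. In IRI they were 6.53, 7.80 and 8.37, and in Sham 7.56, 7.89 and 8.71. In IPO 9 of 10 animals lay above every IRI animal, and in IPC+IPO 8 of 10. The rise in IPO against IRI was 0.83 ± 0.19 (SE, 1.77-fold, adjusted p = 0.0114 in limma), kept without any 1 array, after renewed quantile normalization (0.58, 0.00994) and without the 12 arrays (0.61, 0.0415). With the spread covariate it was 0.33 and not called (0.186). In IPC+IPO against IRI it was 0.75 ± 0.19 and not called as deposited (0.0942), and 0.44 and called with the covariate (0.0495). Against sham Nqo2 rose in IPO by 0.59 ± 0.20 (0.0327), but was -0.07 with the covariate.

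Nqo1, the quinone reductase most often used as an NRF2 target, was 0.57 to 0.73 above sham in the 4 groups and called in none. Its sham animals ran between 5.49 and 8.54, wider than those of any other member. The sulfiredoxin Srxn1, which repairs overoxidized peroxiredoxins, was within -0.01 to 0.21 of sham and not called. Its mean level of 5.59 lay below the median over genes of every array (5.78 to 5.92), so the lack of a call says little. Blvrb, the biliverdin reductase of the flavin type, rose in IPO by 0.56 ± 0.21 (adjusted p = 0.0467 in limma) and in IPC by 0.68 ± 0.21 (0.0419; SE) against sham. With the covariate it was 0.23 in IPO and 0.45 in IPC, neither called. Blvrb means were 7.56 ± 0.48 in IPC+IPO, 7.70 ± 0.36 in IPO, 7.82 ± 0.38 in IPC, 7.76 ± 0.65 in IRI and 7.15 ± 0.32 in Sham (SD). Blvra, which makes bilirubin from biliverdin in the adult liver, lay below sham in all 4 groups, by 0.04 to 0.48, and was not called as deposited, but was called lower in IPC after renewed quantile normalization (-0.68, adjusted p = 0.0171).

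**Figure D4:**
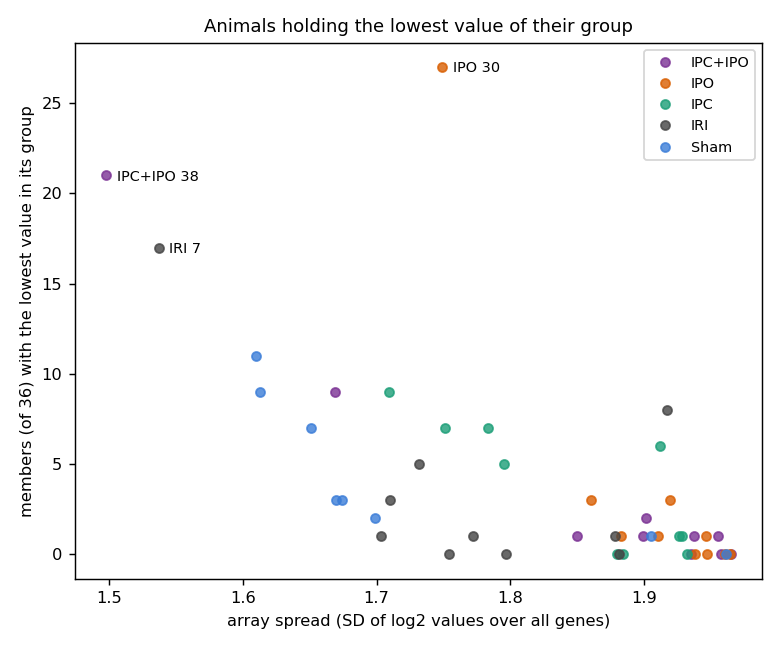
For each of the 48 arrays, its spread (horizontal axis, SD of log2 values over all genes) and the number of the 36 members in which it holds the lowest value of its group (vertical axis). IPO animal 30 holds the lowest in 27 members, IPC+IPO animal 38 in 21 and IRI animal 7 in 17.

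Single animals carried much of the variation within groups. IPO animal 30 (spread 1.749) had the lowest IPO value in 27 of 36 members, IPC+IPO animal 38 (1.498) in 21 and IRI animal 7 (1.537) in 17. Sham animals 48 (1.905) and 43 (1.961) had the highest sham value in 19 and 14 members. Without IRI animal 7, the 9 calls in IPO against IRI became 3, Gpx4, Sod3 and Nqo2. In IRI against sham the count was 0 without any 1 of IRI animals 6 or 9 or sham animals 44, 45, 46 or 47. It was 2 without IRI animal 1, IPO animal 30 or IPC+IPO animals 37 or 38, 3 without sham animal 43 and 5 without sham animal 48. In IPC against sham it was 3 to 5 without any 1 of sham animals 41, 42, 44, 45, 46 or 47, and 16 without 43 or 48. In IPO against sham it was 9 to 11 without any 1 of IPO animals 22, 23, 26 or 27 or sham animals 41, 42, 45, 46 or 47. In IPC+IPO against sham it was 1 or 2 without any 1 of IPC+IPO animals 31, 32, 33, 35, 36, 39 or 40 or sham animals 41, 42, 44, 45, 46 or 47, and 11 to 14 without IPC+IPO animals 37 or 38 or sham animals 43 or 48. In IPC+IPO against IRI it was 4 without IPC+IPO animal 37 and 5 without IPC+IPO animal 38 or IRI animal 1, which also gave 1 call in IPC against IRI. The calls over all genes in these fits are not given here, so the member counts cannot be set against a background.

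**Figure D5:**
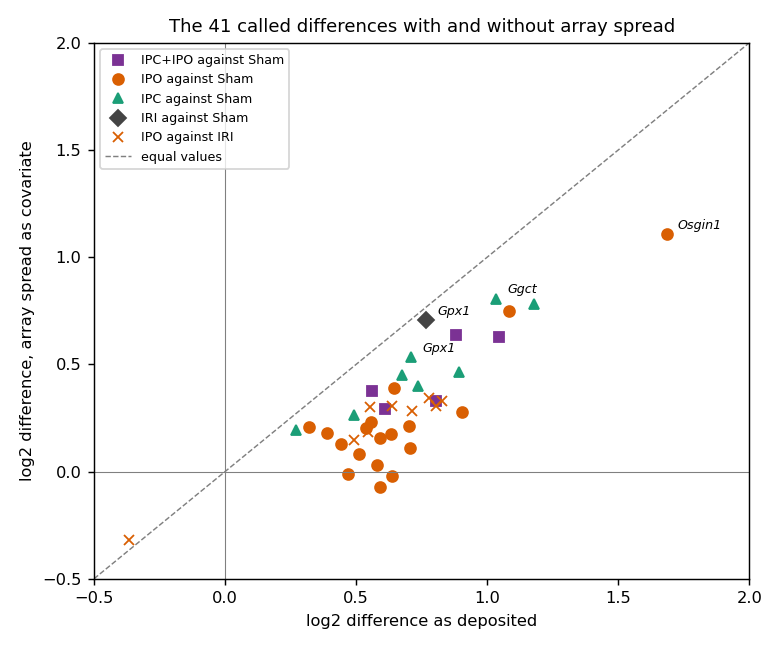
The 41 called differences between groups as deposited (horizontal axis, log2) and with array spread as a covariate (vertical axis, log2), by comparison, with the dashed line marking equal values. All 41 are closer to 0 with the covariate, and 3 stay called.

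The 41 calls, on 20 genes and 40 of them higher, had a median difference of 0.64 as deposited and 0.28 with spread as a covariate. All 41 were smaller with the covariate, 38 kept their sign and 3 stayed called, Gpx1 in IRI and IPC and Ggct in IPC, each against sham. Of the 41, 16 held in every one of the 48 fits that left out an array, among them Ggct in all 3 conditioned groups against sham. The calls that most often failed were those of Blvrb, Prdx1 and Glrx3 in IPO against sham, lost without any 1 of 15, 14 and 14 animals, and of Gpx1, Glrx, Sod3 and Osgin1 in IPC+IPO against sham, lost without any 1 of 14, 13, 13 and 12. Sod1 and Blvrb in IPC and Prdx5, Prdx6, Glrx and Nqo2 in IPO against sham were lost without any 1 of 10 to 12 animals. Nfe2l2 in IPC against sham was lost without sham animals 41, 45 or 46, with differences between 0.81 and 1.01 over all arrays left out, and Gclc in IPO against sham without sham animal 45. In IPC against sham, Gclc was lost without any 1 of 8 animals and Sod2 without any 1 of 4. In IRI against sham, the covariate gave 6 called members: Gpx1, Prdx5 (0.49), Sod1 (0.23) and Txn2 (0.38) higher, and Nqo2 (-0.40) and Txnip (-0.55) lower. The part of spread in these differences was not tested.

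Other genes of the pathway were counted in the same way. The share of all genes called higher against sham was 3.05% in IPC+IPO, 15.4% in IPO, 5.6% in IPC and 0.172% in IRI. Of 25 other glutathione genes, 3 rose in IPC+IPO, 8 in IPO and 4 in IPC against sham, and none in IRI. With the spread covariate 1 was called higher in IPC+IPO, 0 in IPO, 1 in IPC and 1 in IRI, and 1 lower in each of IPC and IRI. Gstk1, a mitochondrial glutathione transferase, rose in IPC+IPO by 0.93 ± 0.17, in IPO by 0.87 ± 0.17 and in IPC by 0.75 ± 0.17 (SE). With the covariate it was 0.59 in IPC+IPO (adjusted p = 0.0101 in limma), 0.39 in IPO (0.214, not called) and 0.42 in IPC (0.0323).

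Of 22 other NRF2-regulated genes measured, 3 rose in IPC+IPO, 10 rose and 1 fell in IPO, 4 rose in IPC and 1 rose in IRI against sham. With the covariate 1 was called higher in IPC+IPO, 0 in IPO, 1 in IPC and 1 in IRI, and 1 lower in IRI. Ftl1, the ferritin light chain that stores iron, was the gene called in all 4, by 0.79 ± 0.15 in IPC+IPO, 0.88 ± 0.15 in IPO, 0.86 ± 0.15 in IPC and 0.65 ± 0.15 in IRI (adjusted p 0.00525, 0.00114, 0.0011 and 0.0462 in limma), and with the spread covariate it stayed called in IPC+IPO, IPC and IRI. Hmox1, heme oxygenase, which frees iron and biliverdin, rose in IPC+IPO by 0.77 ± 0.21, in IPO by 1.04 ± 0.21 and in IPC by 0.83 ± 0.21. With the covariate Hmox1 was 0.41 in IPC+IPO (0.241), 0.54 in IPO (0.266) and 0.48 in IPC (0.111), none called.

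Of 15 NRF2 regulators and partners, 1 rose in IPC+IPO, 8 in IPO and 2 in IPC, among them Sqstm1, which binds KEAP1, by 0.56 ± 0.14 in IPO. None of the 15 was called against sham with the covariate, where Sqstm1 was 0.20 in IPO (adjusted p = 0.567 in limma). Of 18 genes of selenoproteins or their synthesis, 4 rose in IPO and 2 rose and 1 fell in IPC against sham, and in IPO against IRI 1 rose and 3 fell. With the covariate 1 was called lower in IPC, and 1 higher and 2 lower in IRI, against sham. Of 16 genes of oxidant sources and NADPH supply, 4 rose in IPO against sham and 5 in IPO against IRI. With the covariate 1 was called against sham, lower in IRI. That gene, Aox1 (-1.06), is also on the list of other NRF2-regulated genes and is counted in both. It is among the genes of both lists that rose in IPO against IRI (0.905). Me1 is on these lists too, and Slc7a11 is on those of other glutathione and other NRF2-regulated genes, so the lists overlap. In IPO against IRI, 5 of the 25 other glutathione genes rose, and of the 22 other NRF2-regulated genes 5 rose and 1 fell. Of the 15 NRF2 regulators and partners, 5 rose and 1 fell there. In that comparison 12.4% of all genes were called higher and 10.4% lower. None of the genes of these 5 lists was called against IRI with the covariate.

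Markers of other cells were measured beside these results. Summed linear levels of 10 erythroid and platelet genes had medians of 8750 in IPC+IPO, 8580 in IPO, 8010 in IPC, 11700 in IRI and 7070 in Sham, with ranges of 5380 to 16600 in IRI and 4080 to 12200 in Sham. Red cells are rich in the proteins of Gpx1, Prdx2, Cat and Blvrb. In IRI 9 of the 10 erythroid and platelet genes lay above sham, with a median of 0.40. None was called as deposited, and with the spread covariate the globin Hba-a3 was (0.90, adjusted p = 0.0416 in limma). The globin Hbb fell in IPO against IRI (-0.67, 0.0411).

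The sum of 10 Kupffer cell and macrophage genes had medians of 3110 in IPC+IPO, 2660 in IPO, 2750 in IPC, 2350 in IRI and 2230 in Sham, with ranges of 1410 to 3840 in IPC+IPO and 1410 to 3070 in IRI. Of these 10, Cd5l (0.79) and Cd68 (0.60) rose in IPO against IRI, where 12.4% of all genes were called higher. Against sham Vsig4 rose in IPC+IPO (0.82), Cd5l in IPO (0.75) and C1qb in IPC (0.53). Sums of 10 neutrophil genes had medians of 372 in IPC+IPO, 414 in IPO, 380 in IPC, 397 in IRI and 362 in Sham, and reached 781 in IPC+IPO and 565 in IPO, against 449 in IRI and 456 in Sham. In IPO, S100a8 rose against sham (0.80, adjusted p = 0.0435 in limma) and Elane fell against both sham (-0.26, 0.0388) and IRI (-0.37, 0.012).

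Other markers also differed between IPO and IRI, where 12.4% of all genes were called higher and 10.4% lower. Of 10 stellate and mesenchymal genes Pdgfrb (0.53) and Acta2 (0.52) rose, and of 6 endothelial genes measured Eng (0.47) rose. Of 10 hepatocyte genes Ass1 (0.68), Fgb (0.29) and Tf (0.25) rose and Apoa1 (-0.21) fell. The same 4 hepatocyte genes were called in the same directions in IPO against sham, where Acta2, Pdgfrb and Lrat rose too. There 15.4% of all genes were called higher and 7.76% lower. Acta2 also rose in IPC against sham (0.57). With the covariate no gene of these marker lists was called in IPC+IPO, IPO or IPC, against either sham or IRI. In IRI against sham it gave 3 lower calls beside the higher one of Hba-a3. These were the macrophage marker Cd163 (-0.63, adjusted p = 0.0176 in limma), the stellate Col1a2 (-0.42, 0.0327) and the hepatocyte Cps1 (-0.46, 0.047). The part of these cells in the members' differences was not tested.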

How the data were processed

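Liver RNA of 48 rats (150 ng each) was hybridised to Affymetrix arrays, 1 per animal. The authors deposited log2 expression per probe set, obtained with RMA in Affymetrix Expression Console per the submitters' processing notes; versions are not given in the sources used here. All 29215 probe sets had a value. Of these, 15310 had 1 gene symbol in the platform annotation, 323 several and 13582 none here; the probe set of highest mean represented each of 14506 genes. Prdx1 and Ggct had a second probe set; for Ggct both gave the same values, and for Prdx1 they differed by at most 0.27. The Prdx1 probe set used is numbered among probe sets of chromosome 2, while the gene lies on chromosome 5; the other gave a like difference (0.47 in IPO against sham, adjusted p = 0.0346 in limma).

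Comparisons used limma 3.58.1 under R 4.3.3 (lmFit, eBayes), fitting the 5 groups jointly with 43 residual degrees of freedom and no covariate, with Benjamini-Hochberg adjustment over all genes and a threshold of 0.05. Of the 8 tests, those of IRI against sham and of each conditioned group against IRI were checked on simulated data. The others were not. Background correction lies within RMA and the labels give no batch, so neither was varied. The animals were separate, so p-values measure the spread between these animals. Alternatives were 9 other fits and leaving out each array in turn. The 36 members, the gene lists and the tests were chosen with earlier results of these data known. Every called member is named with its values in every group; in a list, genes past the threshold could be named. Plots were made with matplotlib 3.10.9 under Python 3.11.15.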

Additional observations from a re-analysis of the deposited data

Results flagged for a closer look

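A value stood apart from its group, by Dixon's ratio at the 95% level, in 33 of 180 groups of member values, 31 of them low and 2 high. Chance gives about 1 in 20 for any 1 group of values. The members were measured on the same arrays, so the 180 are not independent. IPO animal 30 was low in 18 members: Gpx1 at 10.86, Prdx1 at 11.19, Prdx2 at 8.54, Prdx3 at 8.49, Prdx5 at 9.93, Sod2 at 9.36, Txn2 at 9.60, Txnrd2 at 7.58, Glrx at 7.49, Glrx3 at 7.14, Glrx5 at 9.57, Msra at 7.41, Gclm at 8.15, Gsr at 7.74, Nfe2l2 at 7.87, Keap1 at 6.77, Nqo2 at 7.91 and Blvrb at 6.76. Its spread of 1.749 was the lowest of the IPO arrays. IPC+IPO animal 38, with the lowest spread of all arrays (1.498), was low in 8: Prdx3 at 7.87, Txn2 at 9.40, Txnrd2 at 7.02, Txnip at 6.32, Gclm at 7.36, Nqo2 at 7.32, Srxn1 at 5.11 and Blvrb at 6.33. IPC+IPO animal 37 was low in Sod1 at 11.33 and Ggct at 8.25, and IPC+IPO animal 34 was high in Prdx2 at 10.46 and Prdx4 at 10.34. IRI animal 7 was low in Glrx at 6.20 and Nqo1 at 5.51, and IRI animal 1 in Gpx1 at 11.54. No interaction of the interventions was called in a member.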

How the results depend on the processing

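The counts of called members depended on how array spread was treated. With spread as a covariate they were 0 in IPC+IPO, 0 in IPO, 2 in IPC and 6 in IRI against sham, and 0 in IPO and 2 in IPC+IPO against IRI. Of all genes, the covariate called 34 in IPC+IPO, 0 in IPO, 275 in IPC and 854 in IRI against sham. It called 9 in IPC+IPO and 2 in IPO against IRI. Without the 12 arrays of lowest spread (2 sham animals left) they were 0 in every ischemic group against sham, and 2 in IPO and 4 in IPC+IPO against IRI. Renewed quantile normalization gave 2 in IRI, 8 in IPO (5 higher, 3 lower: Gpx4, Glrx2 and Prdx4), 6 in IPC (4 higher, 2 lower: Blvra and Prdx4) and 2 in IPC+IPO against sham, and 4 in IPO and 3 in IPC+IPO against IRI. Of all genes, that normalization called 382 in IRI, 1316 in IPO, 670 in IPC and 325 in IPC+IPO against sham. Against IRI it called 1289 in IPO and 113 in IPC+IPO. Array weights gave 17 in IRI, 26 in IPC and 28 in IPC+IPO against sham, 4 in IPC and 8 in IPC+IPO against IRI, and 1 for the interaction. For array weights, and for fits without the 12 arrays or without each array, the calls over all genes are not given here. Those member counts therefore cannot be set against a background. Only the groups compared gave 0 in IRI and 0 in IPC+IPO against sham. Other alternatives (median centring, a trended and robust variance model, the probe set of largest variance, leaving out the dimmest 33.3% of genes) moved no count by over 1.5 times. Without each array in turn the counts ran over 1 to 14 in IPC+IPO, 9 to 23 in IPO, 3 to 16 in IPC and 0 to 5 in IRI against sham, 0 to 5 in IPC+IPO, 3 to 12 in IPO and 0 to 1 in IPC against IRI, and 0 to 0 for the interaction. Called members changed sign against sham in IPO with the covariate (Glrx -0.021, Nqo2 -0.071, Prdx6 -0.01) and without the 12 arrays (Glrx -0.31, Glrx3 -0.34, Gsr -0.029, Gss -0.073, Nqo2 -0.082, Prdx5 -0.16, Sod2 -0.048), and without the 12 arrays in IPC (Sod1 -0.006, Sod2 -0.084) and IPC+IPO (Glrx -0.042). The cause was not tested. No paired analysis was possible because no animal number recurs across groups.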
